A study of Mus musculus with 6 samples.

Results

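The SLC25 family holds the carrier proteins of the inner mitochondrial membrane. Its genes were examined by their RNA levels in inguinal white adipose tissue (IWAT), the subcutaneous fat depot of the mouse groin, in mice with and without a nonsense variant of *Ebf2*. *Ebf2* encodes a transcription factor of adipocyte precursors and of brown and beige adipocytes. The members were taken by symbol, as every gene named Slc25a and a number except *Slc25a4*, *Slc25a5*, and *Slc25a20*, with at least 10 counts summed over the libraries. Of 47 such symbols in the table of 55491 genes, 3 were left out by name and 2 by the minimum, which left 42 members. The omitted *Slc25a41* and *Slc25a54* had summed counts of 4 and 1, whereas the least abundant members, *Slc25a2* and *Slc25a31*, had between 4 and 16 counts in each library. The tissue came from 4-week-old male C57BL/6J mice on regular chow. The 3 control mice were Ebf2+/+, and the 3 Ebf2 E165X/+ mice carried 1 copy of the p.E165X allele, a stop codon knocked into the germline with CRISPR. Each mouse gave 1 bulk RNA-seq library.

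A carrier of this family is built from repeats of a shared fold and usually swaps a solute of the matrix for a solute of the cytosol. By this exchange the members connect the citric acid cycle, amino acid breakdown, iron use, and the nucleotide and coenzyme pools of the matrix with the rest of the cell. In white fat the citrate carrier supplies the carbon for fatty acid synthesis, and in brown fat the uncoupling proteins, which belong to the same family, release energy as heat.

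The control libraries held 124927686, 106820505, and 123853070 counts, and those of the Ebf2 E165X/+ mice 110850284, 117413441, and 135039488. At this depth the number of mice limits the precision of most values. Levels are given as CPM, the count of a gene relative to its library size after correction by the TMM method of edgeR. *Ebf2* itself was at 39.0 ± 2.14 CPM (SD, n = 3) in Ebf2+/+ and 22.3 ± 1.04 CPM in Ebf2 E165X/+ mice, without overlap. All 8 markers of adipocytes were detected, summing to 17881, 18316, and 15755 CPM in Ebf2+/+ and 16744, 14617, and 10611 CPM in Ebf2 E165X/+ mice, with *Lpl* as the most abundant.

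The library of the third Ebf2 E165X/+ mouse stood apart by its skeletal muscle RNA. The 8 muscle markers, led by the myosin gene *Myh4*, took 3.62% of its counts and between 0.0689% and 0.660% of the counts of the other libraries. Values without this mouse are given beside the results that it moves most. Leaving it out did not make muscle RNA equal between the genotypes. The markers summed to 1615, 6688, and 2519 CPM in Ebf2+/+ and 2757 and 648 CPM in the first and second Ebf2 E165X/+ mice. All 8 then had log2 fold changes below 0 (median -1.09), against 49.7% of all genes.

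Across all 42 members no gene passed the threshold of an adjusted *P* under 0.05 with a fold change above 1.5 in edgeR, a threshold that 3 of the 32664 genes tested passed (0.00918%). By the unadjusted *P* of edgeR under 0.05, 8 members were lower in Ebf2 E165X/+ IWAT and 2 were higher. These are 19.0% and 4.76% of the members, against 3.7% and 2% of all genes with at least 10 counts. DESeq2 placed 4 members, among them *Slc25a35*, *Slc25a48*, and *Slc25a23*, at an adjusted *P* under 0.05, all lower and none higher, of the 37 members to which it gave an adjusted *P*. Over all genes it did so for 1.07% in the lower and 0.106% in the higher direction. With the fold change above 1.5 added, 3 of these remained, against 0.535% of all genes in the lower direction and 0.0746% in the higher one. limma-voom called none. The count of higher members by the unadjusted *P* of edgeR was 0 without the first or the second Ebf2+/+ mouse and 1 without the first Ebf2 E165X/+ mouse, and that 1 was *Slc25a12*, which is not among the 2 higher with all mice. *P* values weigh the genotype difference against the spread between these mice and treat the mice as independent. No source states whether litters were shared.

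The CPM of the genotypes did not overlap for 14 members. In 8 of them (19.0%) every Ebf2 E165X/+ mouse was lower, against 6.58% of all genes, and in 6 (14.3%) every one was higher, against 6.08%. The 8 lower ones are the same genes as those with an unadjusted *P* under 0.05. In the direction of the fitted change alone the family was close to the other genes, as 24 members (57.1%) were lower and 46.2% of all genes were, and 18 (42.9%) were higher against 53.8%. The median log2 fold change was -0.07 over the members and 0.02 over all genes with at least 10 counts. Leaving out the third Ebf2 E165X/+ mouse gave 7 members lower and 2 higher by the unadjusted *P* of edgeR, against 4.32% and 2.15% of all genes. By direction alone 26 members (61.9%) were then lower, against 49.7% of all genes, and 16 (38.1%) higher, against 50.3%, with a median of -0.10 against 0.0018 for all genes. The median was -0.02 without the first Ebf2+/+ mouse, -0.03 without the first Ebf2 E165X/+ mouse, and -0.12 without the second Ebf2+/+ mouse.

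**Figure D1:**
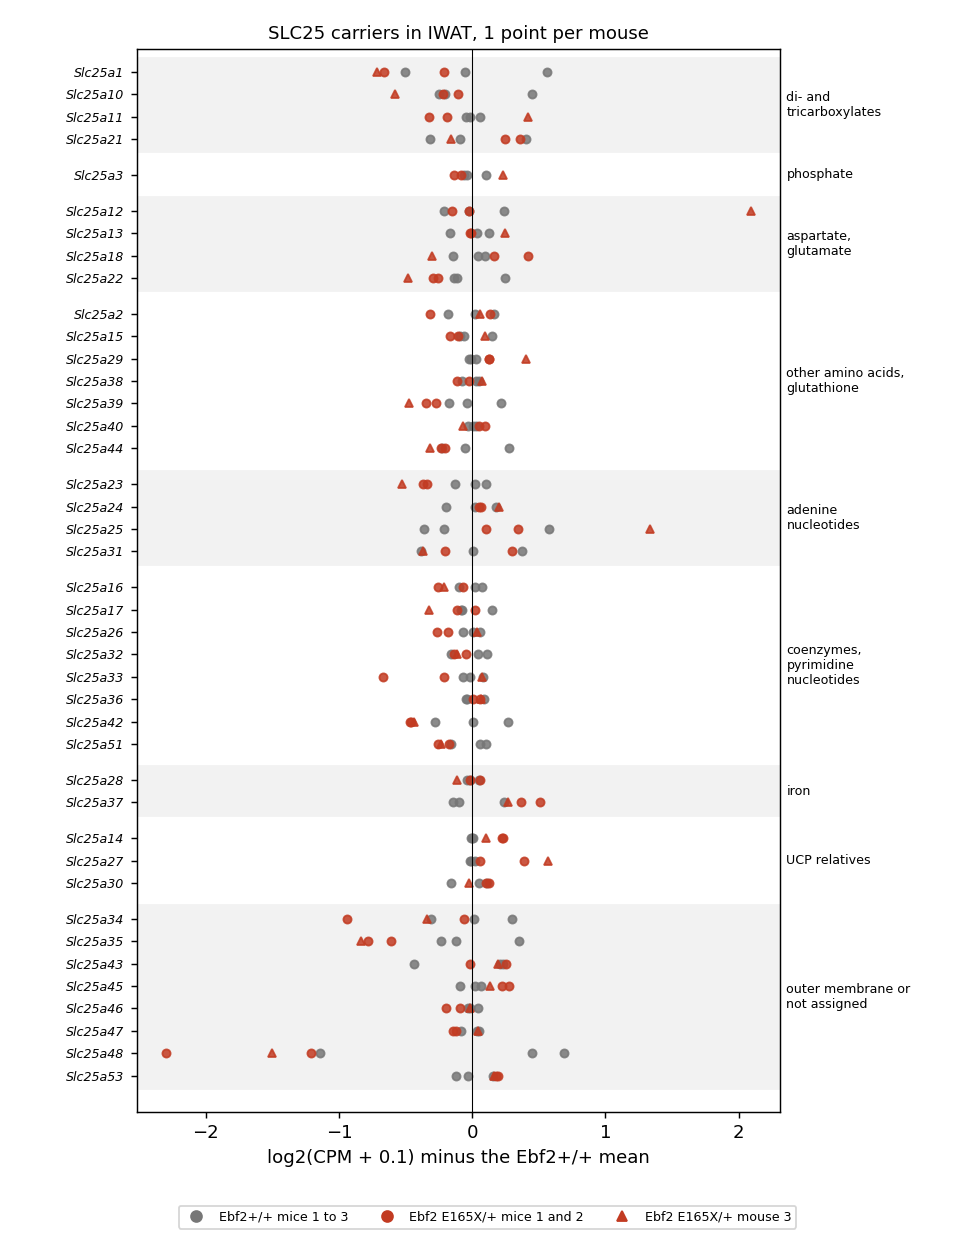
Level of 41 SLC25 members in each mouse, as log2(CPM + 0.1) minus the mean of the Ebf2+/+ mice on the horizontal axis, with members in rows grouped by substrate. Grey circles are Ebf2+/+ mice, red circles the first and second Ebf2 E165X/+ mice, and red triangles the third. Most points lie close to 0, while *Slc25a35* and *Slc25a48* lie to the left in all 3 Ebf2 E165X/+ mice, and the triangle of *Slc25a12* lies far to the right.

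Of all counts, the members together took 0.298%, 0.233%, and 0.258% in controls and 0.233%, 0.249%, and 0.228% with the Ebf2 variant. The genotypes overlapped, and the first Ebf2+/+ mouse was the highest. Summed, the members reached 2682 ± 377 CPM (SD, n = 3) in Ebf2+/+ and 2327 ± 88.4 CPM in Ebf2 E165X/+ mice. *Slc25a1*, *Slc25a3*, and *Slc25a10* alone accounted for 41.0% to 51.5% of this sum in each library.

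Per kilobase of exon, the 6 highest members were those for citrate (*Slc25a1*, 218 CPM per kb over all 6 mice), phosphate (*Slc25a3*, 74.0), dicarboxylates (*Slc25a10*, 71.1), 2-oxoglutarate (*Slc25a11*, 36.9), glutathione (*Slc25a39*, 36.8), and NAD (*Slc25a51*, 28.5). In Ebf2+/+ mice the citrate carrier stood at 261 ± 97.7 CPM per kb (SD, n = 3), above the next 2. Those were at 79.1 ± 22.7 for *Slc25a10* and 73.7 ± 4.69 for *Slc25a3*, values that do not differ beyond their spread. The lowest 5, *Slc25a31*, *Slc25a2*, *Slc25a21*, *Slc25a18*, and *Slc25a43*, lay at or under 0.164 CPM per kb, so the carriers for ornithine (*Slc25a2*), 2-oxoadipate (*Slc25a21*), and glutamate (*Slc25a18*) rested on few reads here. Sources differ on whether the libraries cover whole transcripts or their 3′ ends, and in the latter case dividing by length would misstate these levels.

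Among the carriers of coenzymes and pyrimidine nucleotides, *Slc25a42* and *Slc25a51* were lower at an unadjusted *P* of edgeR under 0.05. *Slc25a42* carries coenzyme A. Its levels were 24.3, 29.6, and 35.5 CPM in Ebf2+/+ and 21.3, 21.4, and 21.8 CPM in Ebf2 E165X/+ mice. The control mice were spread and the Ebf2 E165X/+ mice nearly equal, with all 3 below the lowest control. With a log2 fold change of -0.47 (SE 0.13), it had an adjusted *P* of 0.783 in edgeR and 0.0997 in DESeq2. *Slc25a51* imports NAD, and its levels were 181, 151, and 175 CPM in Ebf2+/+ against 141, 149.6, and 144 CPM in Ebf2 E165X/+ mice. Here the second mouse of each genotype almost met, and the log2 fold change was -0.22 (SE 0.09), with an adjusted *P* of 0.783 in edgeR and 0.457 in DESeq2. Its unadjusted *P* in edgeR was 0.0451 with all mice and 0.0700 to 0.119 with any mouse but the second Ebf2+/+ mouse left out, where it was 0.0109. With the replicate block it was 0.0843. A further 6 members of the group, which carry folate and FAD (*Slc25a32*), S-adenosylmethionine (*Slc25a26*), coenzyme A (*Slc25a16*), cofactors of the peroxisome (*Slc25a17*), and pyrimidine nucleotides (*Slc25a33* and *Slc25a36*), had log2 fold changes between -0.24 and 0.04, and their unadjusted *P* values in edgeR ran from 0.0581 to 0.561.

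*Slc25a23* belongs to the carriers that exchange ATP-Mg for phosphate and are switched by calcium. Levels of 78.2, 92.2, and 86.98 CPM in Ebf2+/+ mice stood against 67.7, 66.4, and 59.5 CPM in Ebf2 E165X/+ mice. The genotypes were separated, and every Ebf2 E165X/+ mouse was lower. This gave a log2 fold change of -0.41 (SE 0.09), with an adjusted *P* of 0.625 in edgeR and 0.0191 in DESeq2. Its paralog *Slc25a24* carries the same substrates and had a log2 fold change of 0.10 (SE 0.11), with overlapping genotypes. The other measured adenine nucleotide carriers were *Slc25a25*, which is described with the muscle-rich library, and *Slc25a31*, which was at most at 0.133 CPM in any mouse.

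Among the members without an assigned substrate, *Slc25a35* was at 64.6, 46.5, and 42.9 CPM in Ebf2+/+ mice and at 29.4, 33.1, and 28.2 CPM in Ebf2 E165X/+ mice. The genotypes did not overlap, and the first control mouse was far above the others. The log2 fold change was -0.76 (SE 0.15), with an adjusted *P* of 0.516 in edgeR and 0.00135 in DESeq2. *Slc25a35* (chr11:68968131-68974365, GRCm38) shares 1151 exonic bases with *Rangrf* on the opposite strand, and whether strand was used in counting is not given in the sources used here. *Rangrf* had 634, 500, and 520 counts in Ebf2+/+ and 436, 582, and 1354 counts in Ebf2 E165X/+ mice, fewer than *Slc25a35* throughout and highest in the muscle-rich library.

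*Slc25a48*, which has been linked to the entry of choline into mitochondria and was left without a substrate in the grouping, had the lowest fold change of all 42 members. It was at 2.76, 0.702, and 2.32 CPM in Ebf2+/+ mice (331, 74, and 287 counts) and at 0.259, 0.665, and 0.523 CPM in Ebf2 E165X/+ mice (30, 83, and 67 counts). The second control mouse was almost level with the second Ebf2 E165X/+ mouse, so the separation of the genotypes rests on the other two controls. The log2 fold change was -1.99 (SE 0.55), a 3.98-fold difference, with an adjusted *P* of 0.783 in edgeR and 0.00843 in DESeq2. *Slc25a45* was at 20.4, 18.8, and 21.0 CPM in Ebf2+/+ and 23.4, 24.2, and 22.02 CPM in Ebf2 E165X/+ mice, a log2 fold change of 0.21 (SE 0.08). Its adjusted *P* was 0.783 in edgeR, and all Ebf2 E165X/+ mice were higher by a small margin. The unadjusted *P* of *Slc25a45* in edgeR was 0.0362 with all mice, 0.0587 to 0.144 with any mouse but the third Ebf2 E165X/+ mouse left out, 0.0817 with the replicate block, and 0.0515 with mitochondrially encoded genes left out. Of the remaining 5 members of this group, the log2 fold changes lay between -0.43 for *Slc25a34* and 0.17 for *Slc25a53*, and *Slc25a46*, which sits in the outer membrane and shapes mitochondria, was at -0.10.

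For amino acids and glutathione, *Slc25a22* and *Slc25a39* were lower at an unadjusted *P* of edgeR under 0.05. *Slc25a22*, a glutamate carrier, was at 99.7, 77.5, and 76.2 CPM in Ebf2+/+ and 70.3, 68.3, and 60.0 CPM in Ebf2 E165X/+ mice, a log2 fold change of -0.35 (SE 0.12). *Slc25a39*, which imports glutathione, was at 132, 110.5, and 101 CPM in Ebf2+/+ and 94.1, 89.4, and 81.7 CPM in Ebf2 E165X/+ mice, a log2 fold change of -0.37 (SE 0.11). For both carriers the first control mouse was the highest and the third Ebf2 E165X/+ mouse the lowest. The adjusted *P* values were 0.783 for both in edgeR, and 0.298 for *Slc25a22* and 0.175 for *Slc25a39* in DESeq2. For *Slc25a22* the log2 fold change was -0.23 without the first Ebf2+/+ mouse, and without the third Ebf2 E165X/+ mouse its unadjusted *P* was 0.0521 in edgeR. *Slc25a40*, the glutathione carrier most like *Slc25a39*, was at 15.3 ± 0.331 CPM (SD, n = 3) in Ebf2+/+ and 15.6 ± 0.895 CPM in Ebf2 E165X/+ mice.

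*Slc25a44* imports branched-chain amino acids and is known for its use in brown fat. It was at 89.8, 63.2, and 71.4 CPM in Ebf2+/+ and 64.4, 62.8, and 59.6 CPM in Ebf2 E165X/+ mice. The second control mouse fell within the range of the Ebf2 E165X/+ mice, and the log2 fold change of -0.26 (SE 0.13) had an unadjusted *P* of 0.0720 in edgeR. Without the first Ebf2+/+ mouse it was -0.13, and without the second -0.39, with an unadjusted *P* of 0.0159 in edgeR. Genes for the breakdown of these amino acids, with the kinase *Bckdk* and the phosphatase *Ppm1k* that regulate it, had fitted changes below 0 in 9 of 9, a direction that 46.2% of all genes had. The median was -0.31, and 5 of the 9 had an unadjusted *P* of edgeR under 0.05 (3.7% of all genes), or 3 of the 9 without the second Ebf2+/+ mouse. *Bckdha*, a subunit of the branched-chain keto acid dehydrogenase, was at 146, 142, and 130.1 CPM in Ebf2+/+ and 106, 104, and 92.5 CPM in Ebf2 E165X/+ mice (log2 fold change -0.47, adjusted *P* 0.000853 in DESeq2 and 0.452 in edgeR). *Dbt* and *Bckdhb*, which complete that enzyme, had log2 fold changes of -0.38 and -0.32. The carriers for glycine (*Slc25a38*), ornithine (*Slc25a15* and *Slc25a2*), and basic amino acids (*Slc25a29*) had log2 fold changes between -0.08 and 0.23.

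**Figure D2:**
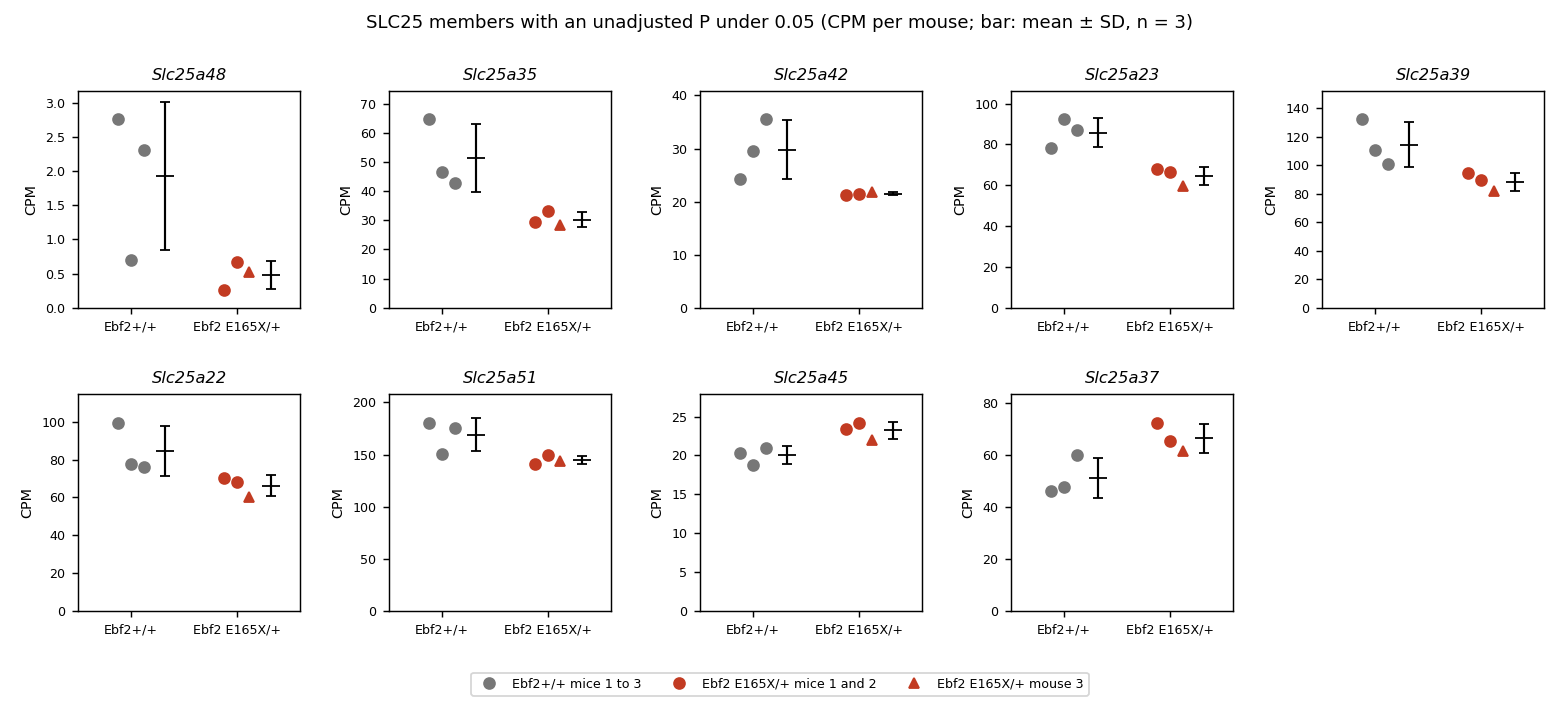
CPM of 9 members with an unadjusted *P* of edgeR under 0.05, 1 panel per gene, with each mouse as a point and the mean ± SD (n = 3) as a bar beside it. Vertical axes start at 0. The first 7 panels are lower in Ebf2 E165X/+ mice and the panels of *Slc25a45* and *Slc25a37* higher, and the genotypes meet closely at *Slc25a48* (0.702 against 0.665 CPM).

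Promoters were read for the members that RefSeq's table of the GRCm38.p6 build holds, 32 of 42. Because *Ebf2* encodes a DNA-binding protein, the 250 bases before each start were searched on both strands for CCCNNGGG, letters of the site that EBF proteins bind. These letters stood before 8 of the 32 members and before 13.4% of all genes in the table. They were found before 1 of the 3 starts that the table gives for *Slc25a22*, but not before *Slc25a23*, *Slc25a39*, *Slc25a42*, or *Slc25a48*, the other lower members with an entry. Letters of 5 other factors were searched in the same way. For ERR (TCAAGGTCA) and the direct repeat of PPAR-RXR no member held them, against 0.422% and 0.0407% of genes. For the site of NRF1 2 members did, against 4.23%, for CRE (TGACGTCA) 2 against 1.77%, and for the E-box (CACGTG) 7 against 6.86%. A match is a description of the letters and not of binding. Shown here are the 250 bases before *Slc25a48*, the member with the lowest fold change (chr13:56438105-56438354, plus strand). Next are those before *Slc25a23*, at an adjusted *P* under 0.05 in DESeq2 without a fold change above 1.5 (chr17:57059864-57060113, minus strand). Last are those before the *Slc25a22* start that holds a match, with the EBF letters in capitals (chr7:141437875-141438124, minus strand). There 2 overlapping matches share 1 run. Each sequence runs 5′ to 3′.
Slc25a48: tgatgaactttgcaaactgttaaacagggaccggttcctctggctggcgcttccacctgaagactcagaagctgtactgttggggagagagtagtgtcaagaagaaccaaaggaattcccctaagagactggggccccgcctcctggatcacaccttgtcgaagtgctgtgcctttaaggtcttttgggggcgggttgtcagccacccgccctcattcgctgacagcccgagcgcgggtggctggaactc
Slc25a23: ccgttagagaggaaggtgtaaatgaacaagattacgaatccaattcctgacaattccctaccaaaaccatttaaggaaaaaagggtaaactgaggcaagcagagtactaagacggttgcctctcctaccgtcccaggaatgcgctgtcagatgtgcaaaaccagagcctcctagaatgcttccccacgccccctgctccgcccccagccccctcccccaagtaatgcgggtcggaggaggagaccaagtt
Slc25a22: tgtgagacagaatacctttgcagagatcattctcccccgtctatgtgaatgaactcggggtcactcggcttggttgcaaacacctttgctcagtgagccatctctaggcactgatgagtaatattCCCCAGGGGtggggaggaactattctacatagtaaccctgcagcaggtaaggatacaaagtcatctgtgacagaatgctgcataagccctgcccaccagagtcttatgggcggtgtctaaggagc

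Iron enters the matrix through 2 related carriers, the mitoferrins. *Slc25a37*, mitoferrin 1, was at 46.1, 47.6, and 60.1 CPM in Ebf2+/+ mice and 72.6, 65.5, and 61.5 CPM in Ebf2 E165X/+ mice. All Ebf2 E165X/+ mice were higher, but the third of each genotype lay close together. Its log2 fold change was 0.38 (SE 0.12), with an adjusted *P* of 0.783 in edgeR and 0.258 in DESeq2. The unadjusted *P* in edgeR was 0.0139 with all mice, but 0.0516 and 0.0570 without the first or the second Ebf2+/+ mouse and 0.0535 without the first Ebf2 E165X/+ mouse. *Slc25a28*, mitoferrin 2, was at 36.96, 37.5, and 39.2 CPM in Ebf2+/+ and 37.4, 39.4, and 35.0 CPM in Ebf2 E165X/+ mice, with a log2 fold change of -0.02 (SE 0.07). The ratio of the first to the second, in CPM, was thus 1.35 ± 0.160 (SD, n = 3) in Ebf2+/+ and 1.79 ± 0.140 in Ebf2 E165X/+ mice, without overlap.

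Several measurements bear on *Slc25a37*. The gene lies on the chromosome of *Ebf2* (chr14:67233292-67430918, GRCm38), at chr14:69241848-69285112, 1.81 Mb from it. The 12 genes tested between them had a median log2 fold change of -0.02. Of the 12, 0 reached an unadjusted *P* of edgeR under 0.05 in either direction. At that threshold 3.7% of all genes were lower and 2% higher, so 0 of 12 is close to these shares. The study's methods name a C57BL/6J background, and its supplement names B6SJLF1 hybrid zygotes whose founders were bred to C57BL/6J. Whether the variant chromosome kept other sequence of that hybrid near *Ebf2* was not tested. *Slc25a37* also shares 382 identical bases with *Gm16867*, which had 827, 646, and 792 counts in Ebf2+/+ and 774, 845, and 844 counts in Ebf2 E165X/+ mice, so reads of that stretch cannot be assigned with certainty. Mitoferrin 1 is known for its role in red cell precursors, and the 8 erythroid markers summed to 3085, 2144, and 3330 CPM in Ebf2+/+ and 4596, 2582, and 2014 CPM in Ebf2 E165X/+ mice, with *Hbb-bs* as the most abundant. All 8 markers had log2 fold changes above 0, and 3 of them, *Slc4a1* and *Epb42* included, had an unadjusted *P* of edgeR under 0.05, against 53.8% and 2% of all genes. Without the first Ebf2 E165X/+ mouse 3 of the 8 were above 0 and 0 at that threshold, and without the second Ebf2+/+ mouse 4 and 0. The count at the threshold was 0 without the first Ebf2+/+ mouse as well. *Slc4a1*, the anion exchanger of red cells, was at 8.10, 6.42, and 11.97 CPM in Ebf2+/+ and 35.0, 18.5, and 8.38 CPM in Ebf2 E165X/+ mice. The first Ebf2 E165X/+ mouse was highest for both *Slc25a37* and the erythroid sum, and the third was lowest in that sum; the part of these cells in the level of *Slc25a37* was not tested.

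Iron that enters the matrix goes into iron-sulphur clusters and heme. Of 14 genes for their synthesis, 5 (*Alas1*, *Fdx1*, *Glrx5*, *Isca2*, and *Iscu*) were lower and 1 (*Cpox*) higher at an unadjusted *P* of edgeR under 0.05, against 3.7% and 2% of all genes. By direction alone 11 of the 14 lay below 0, against 46.2% of all genes. Without the first or the second Ebf2 E165X/+ mouse 3 were lower at that threshold, and without the first or the third Ebf2+/+ mouse *Cpox* was not at it. *Alas1*, the first enzyme of heme synthesis outside red cells, was at 135.5, 119, and 121 CPM in Ebf2+/+ and 90.8, 99.9, and 93.4 CPM in Ebf2 E165X/+ mice (log2 fold change -0.40, adjusted *P* 0.00492 in DESeq2 and 0.584 in edgeR). *Fdx1*, a ferredoxin, had a log2 fold change of -0.35 (adjusted *P* 0.0342 in DESeq2 and 0.783 in edgeR). *Cpox*, a later enzyme of heme synthesis, was the higher one, at 0.34 (adjusted *P* 0.258 in DESeq2).

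The 3 relatives of the uncoupling proteins under SLC25 names had log2 fold changes above 0. *Slc25a14* was at 3.42, 3.41, and 3.43 CPM in Ebf2+/+ and 4.01, 4.04, and 3.68 CPM in Ebf2 E165X/+ mice, a log2 fold change of 0.19 (SE 0.14). *Slc25a27* was at 2.60, 2.61, and 2.65 CPM in Ebf2+/+ and 3.46, 2.73, and 3.94 CPM in Ebf2 E165X/+ mice, a log2 fold change of 0.37 (SE 0.18). In both genes the control mice were nearly identical and every Ebf2 E165X/+ mouse lay above them, yet the unadjusted *P* values were 0.203 and 0.0821 in edgeR. *Slc25a27* was highest in the muscle-rich library, without which its log2 fold change was 0.24 and its unadjusted *P* 0.268 in edgeR, and without the second Ebf2 E165X/+ mouse they were 0.50 and 0.0340. *Slc25a30*, also on chromosome 14 at 8.33 Mb from *Ebf2*, was at 19.5, 22.6, and 23.5 CPM in Ebf2+/+ and 23.8, 23.3, and 21.4 CPM in Ebf2 E165X/+ mice, with overlap.

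The family has 8 further genes in the table that the rule did not take, among them the uncoupling proteins. Of these, 6 were lower and 2 higher, with a median of -0.34, and 5 were lower at an unadjusted *P* of edgeR under 0.05. Over all genes 46.2% were lower, and 3.7% at that threshold. Without the third Ebf2 E165X/+ mouse 7 were lower and 1 higher, and the median was -0.38. *Ucp1*, the uncoupling protein of brown and beige adipocytes, was at 10.8, 21.3, and 33.0 CPM in Ebf2+/+ and 0.259, 0.264, and 0.617 CPM in Ebf2 E165X/+ mice. *Slc25a20*, the carnitine carrier that admits fatty acids for oxidation, was at 95.7, 98.7, and 91.9 CPM in Ebf2+/+ and 65.7, 57.9, and 61.1 CPM in Ebf2 E165X/+ mice. The genotypes were far apart for both genes. *Ucp3* had a log2 fold change of -0.69 (adjusted *P* 0.0191 in DESeq2 and 0.783 in edgeR), *Mtch2* of -0.37, *Slc25a5* of -0.30, and *Mtch1* of -0.17, while *Ucp2* was at 0.11. *Slc25a4*, the ADP/ATP carrier of heart and muscle, was at 846 CPM in the muscle-rich library and between 180.3 and 292 CPM in the others. Its log2 fold change was 0.71 with all mice and -0.37 without that library, where the unadjusted *P* was 0.0359 in edgeR. The muscle markers were below 0 without that library as well (median -1.09), and the part of muscle in this value was not tested.

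Citrate and dicarboxylate carriers varied widely among the control mice. *Slc25a1*, which exports citrate for fatty acid synthesis, was at 794, 379, and 518 CPM in Ebf2+/+ and 341, 466, and 328 CPM in Ebf2 E165X/+ mice. *Slc25a10*, which exchanges dicarboxylates for phosphate, was at 364, 224, and 232 CPM in Ebf2+/+ and 247, 229, and 178 CPM in Ebf2 E165X/+ mice. For both, the first control mouse was the highest of all 6 and the second control mouse was among the Ebf2 E165X/+ mice. For *Slc25a10* the third control mouse was among them as well. The log2 fold changes were -0.58 (SE 0.27) for *Slc25a1*, with an unadjusted *P* of 0.0706 in edgeR, and -0.33 (SE 0.21) for *Slc25a10*, with 0.166. Without the first Ebf2+/+ mouse the log2 fold changes were -0.26 and -0.08. *Slc25a1* was at -0.81 without the second Ebf2+/+ mouse and at -0.75 without the second Ebf2 E165X/+ mouse, with unadjusted *P* values of 0.0140 and 0.0385 in edgeR.

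Genes that make and use citrate had the same high control mouse. All 7 had fitted changes below 0, with a median of -0.74, and 4 of them (*Aco1*, *Cs*, *Acly*, and *Fasn*) had an unadjusted *P* of edgeR under 0.05, against 46.2% and 3.7% of all genes. Without the first Ebf2+/+ mouse the median was -0.34 and 0 of the 7 were at that threshold. The count was 1 without the first and 2 without the third Ebf2 E165X/+ mouse, but 5 without the second and 6 without the third Ebf2+/+ mouse. *Acly*, which splits exported citrate into acetyl-CoA, was at 3690, 949.8, and 1433 CPM in Ebf2+/+ and 543, 1119, and 846 CPM in Ebf2 E165X/+ mice. *Fasn*, the fatty acid synthase, was at 12648, 5101, and 6660 CPM in Ebf2+/+ and 3701, 5554, and 3454 CPM in Ebf2 E165X/+ mice. *Cs*, citrate synthase, was at 769, 665, and 641 CPM in Ebf2+/+ and 485, 484, and 618.5 CPM in Ebf2 E165X/+ mice, a log2 fold change of -0.39 (SE 0.15). For *Acly* and *Fasn* the genotypes overlapped, and without the first Ebf2+/+ mouse their log2 fold changes went from -1.28 to -0.53 and from -0.94 to -0.49. For *Cs* they did not overlap. *Aco1*, a cytosolic aconitase, had a log2 fold change of -0.38 (SE 0.14).

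**Figure D3:**
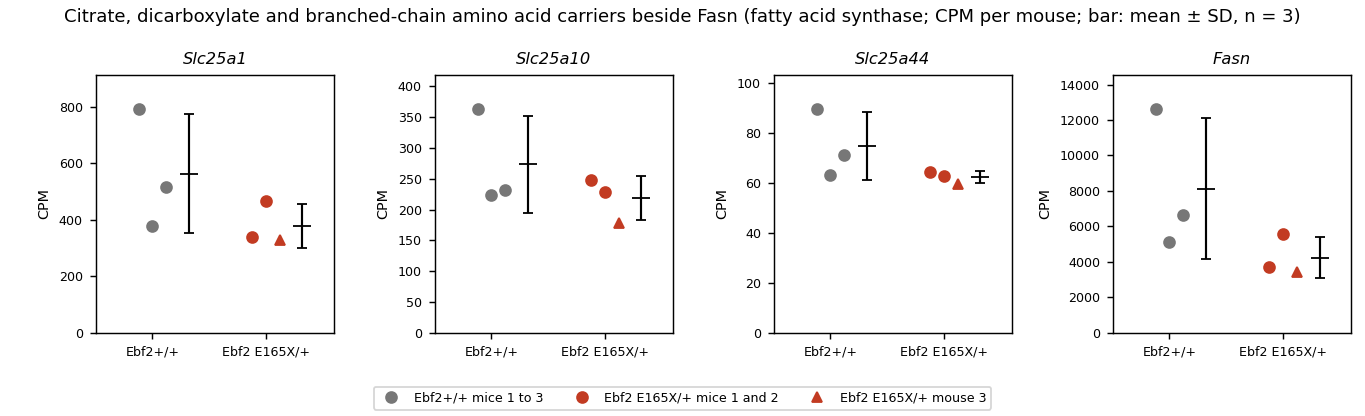
CPM of *Slc25a1*, *Slc25a10*, *Slc25a44*, and *Fasn* in each mouse, with the mean ± SD (n = 3) as a bar beside the points and vertical axes from 0. The first Ebf2+/+ mouse is the highest point in all 4 panels (794, 364, 89.8, and 12648 CPM), and the genotypes overlap in each.

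In the muscle-rich library 9 members had their highest level of all mice. They include *Slc25a13*, *Slc25a24*, and *Slc25a38*, where the margin over the next mouse was small, and *Slc25a27* and *Slc25a29*. The other 4 follow, and for *Slc25a12* and *Slc25a25* the fold change was much smaller without that library. *Slc25a12*, the aspartate/glutamate carrier of the malate-aspartate shuttle in excitable tissues, was at 27.0, 36.9, and 30.7 CPM in Ebf2+/+ and 30.8, 28.2, and 134 CPM in Ebf2 E165X/+ mice. Its log2 fold change was 1.03 (SE 0.57) with all mice and -0.10 without the third Ebf2 E165X/+ mouse. *Slc25a25*, an ATP-Mg carrier, was at 26.4, 29.3, and 50.6 CPM in Ebf2+/+ and 36.6, 43.1, and 86.0 CPM in Ebf2 E165X/+ mice, with log2 fold changes of 0.64 and 0.17. Its unadjusted *P* in edgeR was 0.118 with all mice and 0.000874 with the replicate block. Apart from the muscle-rich library the genotypes of *Slc25a12* and *Slc25a25* overlapped.

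*Slc25a11*, which exchanges 2-oxoglutarate for malate in the same shuttle, was at 81.3, 77.1, and 75.6 CPM in Ebf2+/+ and 68.4, 62.4, and 104 CPM in Ebf2 E165X/+ mice. The first and second Ebf2 E165X/+ mice lay below every control and the third above. The log2 fold change was accordingly 0.01 with all mice and -0.25 without the third, where the unadjusted *P* was 0.0121 in edgeR. Muscle markers lay below 0 without that mouse too (median -1.09), and the part of muscle in the values of this paragraph was not tested. *Slc25a3*, which supplies phosphate for ATP synthesis, was at 439, 398, and 391 CPM in Ebf2+/+ and 372, 385, and 479 CPM in Ebf2 E165X/+ mice, with log2 fold changes of 0.01 and -0.11. Of the 4 enzymes of the shuttle, *Got1* and *Got2* were highest in that library and *Mdh1* and *Mdh2* were not. With all mice 2 of the 4 lay below 0, and without the third Ebf2 E165X/+ mouse all 4 did (median 0.15 and -0.34). *Mdh1*, cytosolic malate dehydrogenase, had a log2 fold change of -0.32 (SE 0.15), and *Got1*, an aspartate aminotransferase, of 1.08 with all mice and -0.30 without that library. *Got2*, its mitochondrial counterpart, was at 193 CPM in that library and between 63.4 and 81.1 CPM in the others.

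**Figure D4:**
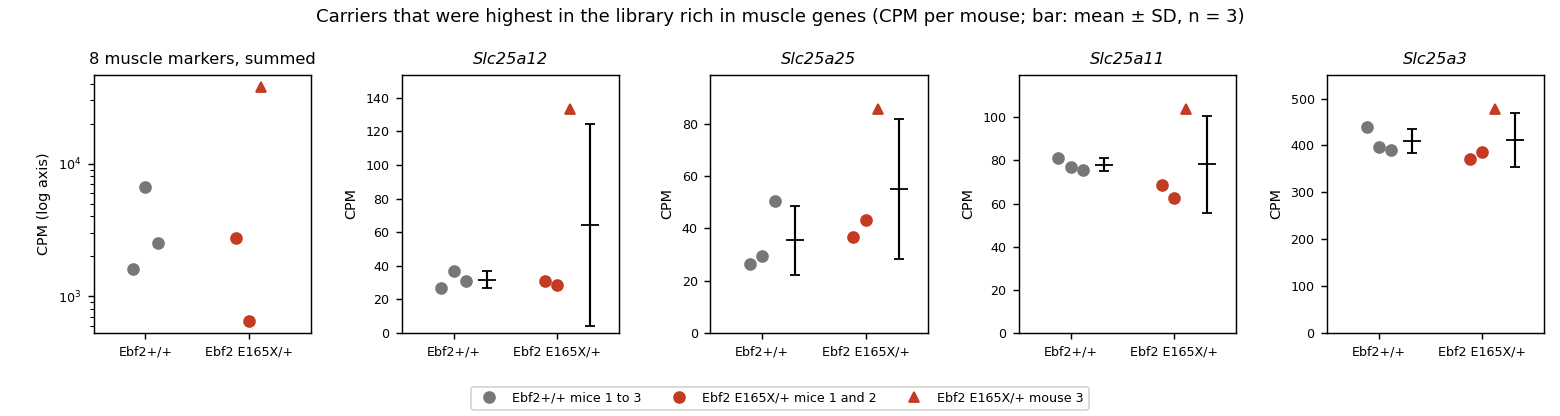
Summed CPM of 8 skeletal muscle markers on a log axis, and CPM of *Slc25a12*, *Slc25a25*, *Slc25a11*, and *Slc25a3* on axes from 0, in each mouse, with the mean ± SD (n = 3) beside the carriers. The triangle, the third Ebf2 E165X/+ mouse, is the highest point in every panel (38143 CPM for the markers and 134, 86.0, 104, and 479 CPM for the carriers).

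Transporters of the inner membrane that belong to other families, chosen as a comparison, lay below 0 in 12 of 21 and above in 9, with 6 lower and 1 higher at an unadjusted *P* of edgeR under 0.05 and a median of -0.15. The shares of all genes were 46.2% below 0 and, at that threshold, 3.7% lower and 2% higher. Without the third Ebf2 E165X/+ mouse 19 of the 21 lay below 0, and without the first Ebf2+/+ mouse, or without the first or the second Ebf2 E165X/+ mouse, 3 were lower at that threshold. *Mpc1* and *Mpc2*, the subunits of the pyruvate carrier, had log2 fold changes of -0.60 (SE 0.20) and -0.45 (SE 0.16), each without overlap. *Mpc1* was at 320.1, 197, and 191 CPM in Ebf2+/+ and 159, 144, and 163.5 CPM in Ebf2 E165X/+ mice, and without the first Ebf2+/+ mouse the log2 fold changes were -0.33 for *Mpc1* and -0.24 for *Mpc2*. *Abcb8*, an ABC transporter, was at -0.35 (SE 0.10) and *Letm1*, an ion exchanger, at -0.37 (SE 0.12). The higher one was *Sfxn3*, a sideroflexin, at 0.24 (SE 0.08). Of the other sideroflexins, *Sfxn5* was among the 6 lower genes, at -0.42 (SE 0.15), and *Sfxn1*, *Sfxn2*, and *Sfxn4* lay below 0 too. The 7 genes at that threshold had adjusted *P* values of 0.783 in edgeR. Of 9 genes that import and insert carriers, 8 lay below 0, with a median of -0.08, and 2 were lower at an unadjusted *P* of edgeR under 0.05, against 46.2% and 3.7% of all genes. These were *Timm9* (-0.25) and *Timm10* (-0.45), chaperones of the intermembrane space. Without the first Ebf2+/+ mouse 5 of the 9 lay below 0, with a median of -0.04. The count at that threshold was 0 without it, without the first, and without the second Ebf2 E165X/+ mouse, 1 without the third Ebf2+/+ mouse, and 3 without the third Ebf2 E165X/+ mouse.

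**Figure D5:**
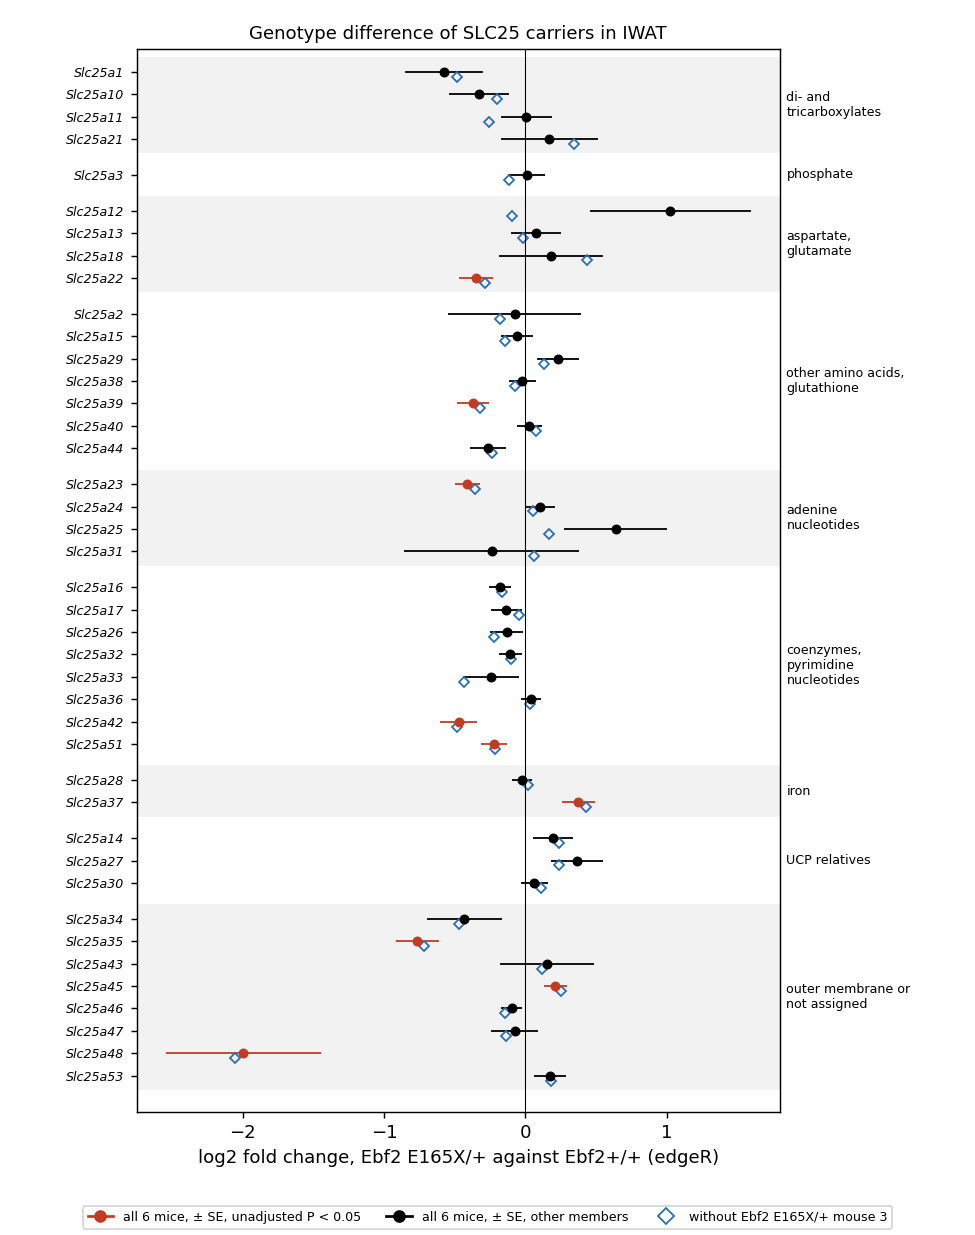
Fitted log2 fold change of 41 members between Ebf2 E165X/+ and Ebf2+/+ IWAT on the horizontal axis, as circles with SE for all 6 mice (red where the unadjusted *P* of edgeR was under 0.05) and as open diamonds without the third Ebf2 E165X/+ mouse. Circle and diamond lie far apart for *Slc25a12* (1.03 and -0.10) and *Slc25a25* (0.64 and 0.17), while *Slc25a48* lies to the left under both (-1.99 and -2.06).

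Markers of other cell types and of adipocytes were counted in the same fit. All 8 adipocyte markers had log2 fold changes below 0, with a median of -0.28 (-0.14 without the third Ebf2 E165X/+ mouse), and 0 of the 8 had an unadjusted *P* of edgeR under 0.05. All 8 markers of brown and beige adipocytes were below 0 too, 5 of them at that threshold, against 46.2% and 3.7% of all genes. The median was -0.85 with all mice and -1.30 without the third Ebf2 E165X/+ mouse, where 6 were at the threshold. Their sums were 173, 225, and 222 CPM in Ebf2+/+ and 53.2, 56.2, and 99.4 CPM in Ebf2 E165X/+ mice, with *Cidea* as the most abundant. B cell and T cell markers (7 and 7) and macrophage markers (6) were all above 0, against 53.8% of all genes. Their medians were 0.29, 0.21, and 0.11, and 0 of them reached the threshold with all mice. Every Ebf2 E165X/+ mouse was above every control for 4 B cell, 1 T cell, and 0 macrophage markers, against 6.08% of all genes. Without the second Ebf2+/+ mouse 5 of the 6 macrophage markers were below 0 (median -0.03), and without the first the medians were 0.09 for B cell and 0.07 for T cell markers, with 1 of the latter below 0. The 6 endothelial markers were below 0 (median -0.24), and without the third Ebf2 E165X/+ mouse 5 of them were (median -0.13). Of 6 markers of adipocyte progenitors 5 were above 0 (median 0.07), but without the second Ebf2+/+ mouse 2 were (median -0.07). In neither list was a marker at the threshold with all mice. The 6 epithelial markers, led by *Krt5*, summed to 76.9, 4.37, and 40.9 CPM in Ebf2+/+ and 33.0, 3.93, and 8.44 CPM in Ebf2 E165X/+ mice and varied mostly within genotypes. In bulk tissue, fewer cells of a type and less RNA per cell cannot be told apart, and the part of these cell types in the levels of the carriers was not tested.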

How the data were processed

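RNA of IWAT from 3 Ebf2+/+ and 3 Ebf2 E165X/+ mice was sequenced, and groups were taken from the sample labels. The deposited values are expected counts, the authors' estimates of fragments per gene, and all 332946 values were whole numbers, so rounding changed none. The submitters' processing notes name cutadapt 4.8, FastQC 0.11.8, MultiQC 1.20, STAR 2.7.8a, RSEM 1.3.3, and GRCm38. The labels name an NEB kit and the study's supplement a 3′ kit, and strandedness is not given in the sources used here.

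The 32664 genes that had a count of 1 or more somewhere were fitted in R 4.3.3 with edgeR 4.0.16 (TMM, glmQLFit and glmQLFTest, genotype alone), and *P* values were adjusted over all of them by the Benjamini-Hochberg method. SEs were derived from the log2 fold change and its *F* statistic. Shares of all genes refer to genes with at least 10 summed counts. DESeq2 1.42.0 and limma-voom (limma 3.58.1) were alternatives, with DESeq2's size factors, filterByExpr, a block for replicate number, mitochondrially encoded genes left out, and each mouse left out in turn. Reading DESeq2 at any fold change, DESeq2 without the third Ebf2 E165X/+ mouse, and the comparison lists with each mouse left out were added after the data were seen. The edgeR script was tested on simulated data. Exon lengths, coordinates, and overlaps come from GENCODE's GRCm38 annotation, and blastn 2.17.0 found transcripts that share at least 200 bases at 95% identity or more. Promoters come from RefSeq. Figures were drawn with matplotlib 3.10.9.

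One member enters the counts and medians but is not reported singly here. Values per mouse are given for the other members with an unadjusted edgeR *P* under 0.05, those called by DESeq2, the 6 highest per kilobase, those on the chromosome of *Ebf2*, the iron carriers, the uncoupling relatives, *Slc25a1*, and *Slc25a44*, while examples of smallest *P* in each comparison list are given by log2 fold change, some with values per mouse. *Slc25a12*, *Slc25a25*, *Slc25a40*, *Slc25a24*, *Slc25a34*, *Slc25a53*, *Slc25a46*, *Got2*, *Slc4a1*, *Mpc2*, and the sideroflexins other than *Sfxn3* were added after their values were seen. The members and lists were chosen with earlier results of these data known. With 3 mice per genotype the spread between mice limits the precision.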

Additional observations from a re-analysis of the deposited data

How the results depend on the processing

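The count of lower members at an unadjusted *P* of edgeR under 0.05 was 7 to 11 with each mouse left out in turn and 7 to 9 under the other settings, against 8. The count of higher members was 0 to 3 with each mouse left out, and 1 with mitochondrially encoded genes left out, against 2. Calls at an adjusted *P* under 0.05 with a fold change above 1.5 were 0 in edgeR under every setting and with each mouse left out, 0 in limma-voom, and 3 in DESeq2, or 4 at any fold change. The median over the members ran from -0.12 to -0.02 with each mouse left out and from -0.08 to -0.04 under the other settings. Counts of members without overlap were 8 and 6 with DESeq2's size factors too. The causes of these differences were not tested.

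Several members with log2 fold changes close to 0 changed sign, as did *Slc25a12*, which was at 1.03 with all mice. *Slc25a11* was at -0.0026 in DESeq2 and with its size factors in edgeR, -0.029 in limma-voom, -0.032 with the replicate block, and -0.011 with mitochondrially encoded genes left out, and ran from -0.25 to 0.15 with each mouse left out. *Slc25a3* was at -0.0054 with mitochondrially encoded genes left out and ran from -0.11 to 0.079 with each mouse left out. *Slc25a28* ran from -0.066 to 0.020 and *Slc25a30* from -0.026 to 0.11. Over all 42 members, 15 changed sign with some mouse left out and 27 did not. Among the 15 were *Slc25a12*, *Slc25a13*, *Slc25a15*, *Slc25a24*, *Slc25a38*, and *Slc25a40*. Ranked by CPM without division by length, *Slc25a11* was 8th and *Slc25a51* 4th among the members.

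Same-numbered libraries of the genotypes did not deviate together (correlations of -0.16, 0.07, and -0.46 over 14966 genes). Libraries of unlike numbers had correlations from -0.77 to 0.80. With 3 mice per genotype such correlations cannot show whether litters or days were shared. The main fit therefore used genotype alone. With the replicate block 7 members were lower and 2 higher at an unadjusted *P* of edgeR under 0.05, the median was -0.07, and 0 were called. The 2 higher were *Slc25a37* (0.0334) and *Slc25a25* (0.000874, against 0.118 without the block). *Slc25a45* (0.0817) and the lower *Slc25a51* (0.0843) were not at that threshold with the block.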
